A study of Mus musculus with 6 samples.

Results

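The genes described here are 35 mouse genes of the actin cytoskeleton and of the transcriptional programmes driven by SRF and by YAP and TAZ. They were taken from a list of names, and every probe set annotated to exactly 1 of these genes was included. Each of the 35 genes had a probe set, out of 18194 genes that the array names by a probe set of their own, and together they had 81 probe sets besides the 3 control probe sets for Actb. RNA came from 3T3-L1, a line of mouse embryonic fibroblasts widely used as a model of preadipocytes, and was measured on 1 one-colour oligonucleotide array per culture. The study compared 3 cultures treated with resveratrol, a polyphenol of grapes, with 3 untreated control cultures of the same line, and the labels give no genetic change in either group. Dose, length of treatment and state of differentiation are not given in the sources used here. The design calls the 3 arrays of a group replicate cultures, but nothing says that they were grown on separate occasions, so the p-values measure only the spread between these samples.

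Actin filaments are built from actin monomers, crosslinked by filamins and alpha-actinins, decorated by tropomyosins, caldesmon and calponins, contracted by non-muscle myosin and tied to integrins through talin, vinculin and LIM-domain proteins. Monomeric actin holds the cofactor Mkl1 (MRTF-A) in the cytoplasm; when monomers are used up in filaments, Mkl1 enters the nucleus and works with SRF at CArG boxes, many of which lie in genes of the cytoskeleton itself. YAP and TAZ (the product of Wwtr1) are cofactors of TEAD factors that are nuclear in spread and tense cells and are held back by the Hippo kinases. Preadipocytes take apart their stress fibres as they become fat cells, and TAZ is known to restrain PPARγ, the master regulator of fat cell formation.

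The cultures carried markers of both fibroblasts and fat cells. The summed intensity of 6 preadipocyte or fibroblast markers was 17538 to 21182 in the resveratrol cultures and 18396 to 20982 in the control cultures, and 1 of the 6 rose (Thy1). Their median log2 change was 0.05, with 4 of the 6 positive. Col1a1 went the other way, at -0.32 at its brightest probe set, and did not pass in limma (adjusted p = 0.0757). Of 6 adipocyte markers chosen, 4 were matched by name to a probe set of 1 gene, and Plin1 and Cfd were not. The 4 summed to 24595 to 31514 in the resveratrol cultures and 24934 to 40217 in the control cultures, and 1 of the 4 fell (Cidec). All 4 had negative changes, with a median of -0.27, and Fabp4 fell at 2 of its 4 probe sets though not at the brightest. The 6 smooth muscle markers, among them Lmod1, summed to 232 to 254 in the resveratrol cultures and 207 to 257 in the control cultures. Those of skeletal or cardiac muscle summed to 172 to 226 with resveratrol and 159 to 184 in control, those of macrophages to 247 to 325 with resveratrol and 204 to 271 in control, and those of endothelium to 75.1 to 101 with resveratrol and 66.0 to 89.8 in control. Of the markers tested in these last 4 lists (4, 3, 4 and 2), 0 passed in limma, and 1, 0, 1 and 0 had an unadjusted p under 0.05. The share of all genes at that unadjusted level is not given here. The part of these cell-type levels in the results on actin, SRF and YAP genes was not tested. The hybridisation controls spiked into each sample split the arrays in another way. Their mean log2 signal was 10.74, 10.29 and 10.22 on resveratrol arrays 1 to 3 and 11.01, 11.03 and 10.01 on control arrays 1 to 3, so resveratrol 1 and control 1 and 2 were the brighter arrays. The ratio of 3′ to 5′ signal of Gapdh, a sign of RNA quality, was 0.729, 0.792 and 0.771 in the resveratrol cultures, against 0.811, 0.794 and 0.831 in the control cultures. Every treated array lay below every control, and the part of this in the results was not tested.

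The proximal promoters of Srf, Cnn2 and Ccn1 are shown first, because SRF and TEAD are read through short motifs there. Cnn2 and Ccn1 rose at their brightest probe set, and Srf did not pass. The sequences are those of RefSeq for GRCm38.p6, from 250 bases before to 50 bases after the annotated start, and a promoter was held for 30 of the 35 genes. Capitals mark a CArG box, the SRF motif, in its strict form CCWWWWWWGG, where W is A or T. They also mark GGAATG, the core TEAD motif, which appears as CATTCC when it lies on the other strand. Both strands were searched, and the 2 motifs do not overlap in any of these windows. The Srf promoter (chr17:46556113-46556412, minus strand) holds 2 CArG boxes, at -82 and -62 from the start. The Cnn2 promoter (chr10:79988350-79988649, plus strand) holds 1 at -56. The Ccn1 promoter (chr3:145649936-145650235, minus strand) holds no CArG box in these bases and a CATTCC at -103.
Srf: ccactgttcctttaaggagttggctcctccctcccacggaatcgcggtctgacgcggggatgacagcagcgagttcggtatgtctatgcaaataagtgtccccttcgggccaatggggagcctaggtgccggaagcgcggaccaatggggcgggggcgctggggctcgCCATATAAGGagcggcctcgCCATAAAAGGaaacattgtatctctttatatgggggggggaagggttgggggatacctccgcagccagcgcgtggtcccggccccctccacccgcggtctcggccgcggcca
Cnn2: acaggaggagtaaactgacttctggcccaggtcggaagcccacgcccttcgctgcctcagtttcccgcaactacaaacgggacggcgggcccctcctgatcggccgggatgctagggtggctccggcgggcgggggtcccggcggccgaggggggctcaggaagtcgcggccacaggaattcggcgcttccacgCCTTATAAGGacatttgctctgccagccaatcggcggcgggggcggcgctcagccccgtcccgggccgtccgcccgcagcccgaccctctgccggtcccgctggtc
Ccn1: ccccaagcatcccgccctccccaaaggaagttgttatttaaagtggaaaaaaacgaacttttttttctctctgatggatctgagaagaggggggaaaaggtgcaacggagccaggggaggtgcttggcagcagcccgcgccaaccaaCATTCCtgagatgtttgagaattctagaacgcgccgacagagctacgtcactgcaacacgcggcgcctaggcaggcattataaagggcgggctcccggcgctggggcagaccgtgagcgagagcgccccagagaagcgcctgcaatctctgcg

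A CArG box of the strict form was present in 6 of the 30 genes, which is 20% against 1.81% of the 27025 genes with a promoter of this length in the table. The 4 others besides Srf and Cnn2 were Actg1 (-90), Vcl (-227), Lima1 (-47) and Myl9 (-161), and their boxes are printed here with up to 25 bases on each side. GGAATG on either strand was present in 13 of the 30 genes, or 43.3%, against 16.6% of all genes. Wwtr1 and Flna are shown for this motif, and Vcl was the only gene of the 30 to hold both. Sites that break the strict CArG form were not counted, such as ccctatatgg in the Acta2 promoter. The list was put together as SRF and YAP genes, so a surplus of these motifs describes the list, and a match in a window is not evidence of binding. By the brightest probe set, 1 of the 6 genes with a CArG box was called, and 3 called genes had none. Of the 13 genes with GGAATG 3 were called, and 1 called gene had none. Over all genes tested, 10.5% were called. No promoter was held for Tgfb1i1, which rose. Coordinates are chr11:120348551-120348610, minus strand for Actg1, chr14:20929148-20929205, plus strand for Vcl, chr15:99820162-99820221, minus strand for Lima1, chr2:156775278-156775337, plus strand for Myl9, chr3:57576016-57576071, minus strand for Wwtr1 and chrX:74246650-74246705, minus strand for Flna.
Actg1: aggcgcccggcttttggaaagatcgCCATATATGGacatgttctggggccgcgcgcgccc
Vcl: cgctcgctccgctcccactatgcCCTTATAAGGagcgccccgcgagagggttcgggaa
Lima1: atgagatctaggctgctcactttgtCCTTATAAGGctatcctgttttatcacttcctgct
Myl9: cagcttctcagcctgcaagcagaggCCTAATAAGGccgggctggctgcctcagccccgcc
Wwtr1: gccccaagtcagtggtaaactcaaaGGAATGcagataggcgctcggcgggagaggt
Flna: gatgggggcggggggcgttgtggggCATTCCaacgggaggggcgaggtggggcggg

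In resveratrol-treated cells the actin, SRF and YAP genes did not move together. A few rose at their brightest probe set, led by the matricellular gene Ccn1 and the crosslinker Flna. For Ccn1, 2 probe sets rose and 2 dim ones fell, and the mean of the 4 was 0.07 (adjusted p = 0.746 in limma). The TAZ transcript, Wwtr1, fell slightly, a call lost without any 1 of the 6 arrays. The actins themselves, the tropomyosins and the myosin genes gave no call. Of the 81 probe sets, 73 were bright enough to be tested, and 10 of these passed an adjusted p of 0.05 in limma, 6 higher and 4 lower with resveratrol. That is 13.7% of the 73, beside 8.17% of all 27022 probe sets tested (3.95% rose and 4.22% fell). Counted by gene, with the brightest probe set standing for each, 33 genes were tested, 4 rose (Ccn1, Flna, Cnn2 and Tgfb1i1), 1 fell (Wwtr1) and 28 did not pass. The share called was 15.2%, beside 10.5% of all 12630 genes (5.32% rose and 5.21% fell). The count rests on single arrays: it was 2 genes without resveratrol 1, resveratrol 2 or resveratrol 3 in turn, 1 without control 2, 4 without control 1 and 6 without control 3. Calls over all probe sets also dropped. The 2209 became 1232, 1131 and 1523 without resveratrol 1, 2 and 3, and 1952, 1179 and 1812 without control 1, 2 and 3.

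The members' changes were small in the main. Their median log2 change was 0.08, against 0.02 over all genes, and the median size regardless of sign was 0.156, against 0.148 over all genes. The change was positive for 21 of the 33 genes (63.6%), against 53.7% of all genes. Brightest probe sets ranged from -0.65 for Tagln, which did not pass, to 0.80 for Ccn1. The groups did not overlap at 22 of the 73 probe sets (30.1%), beside 26.4% of all probe sets. The median SE of a member probe set was 0.106.

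**Figure D1:**
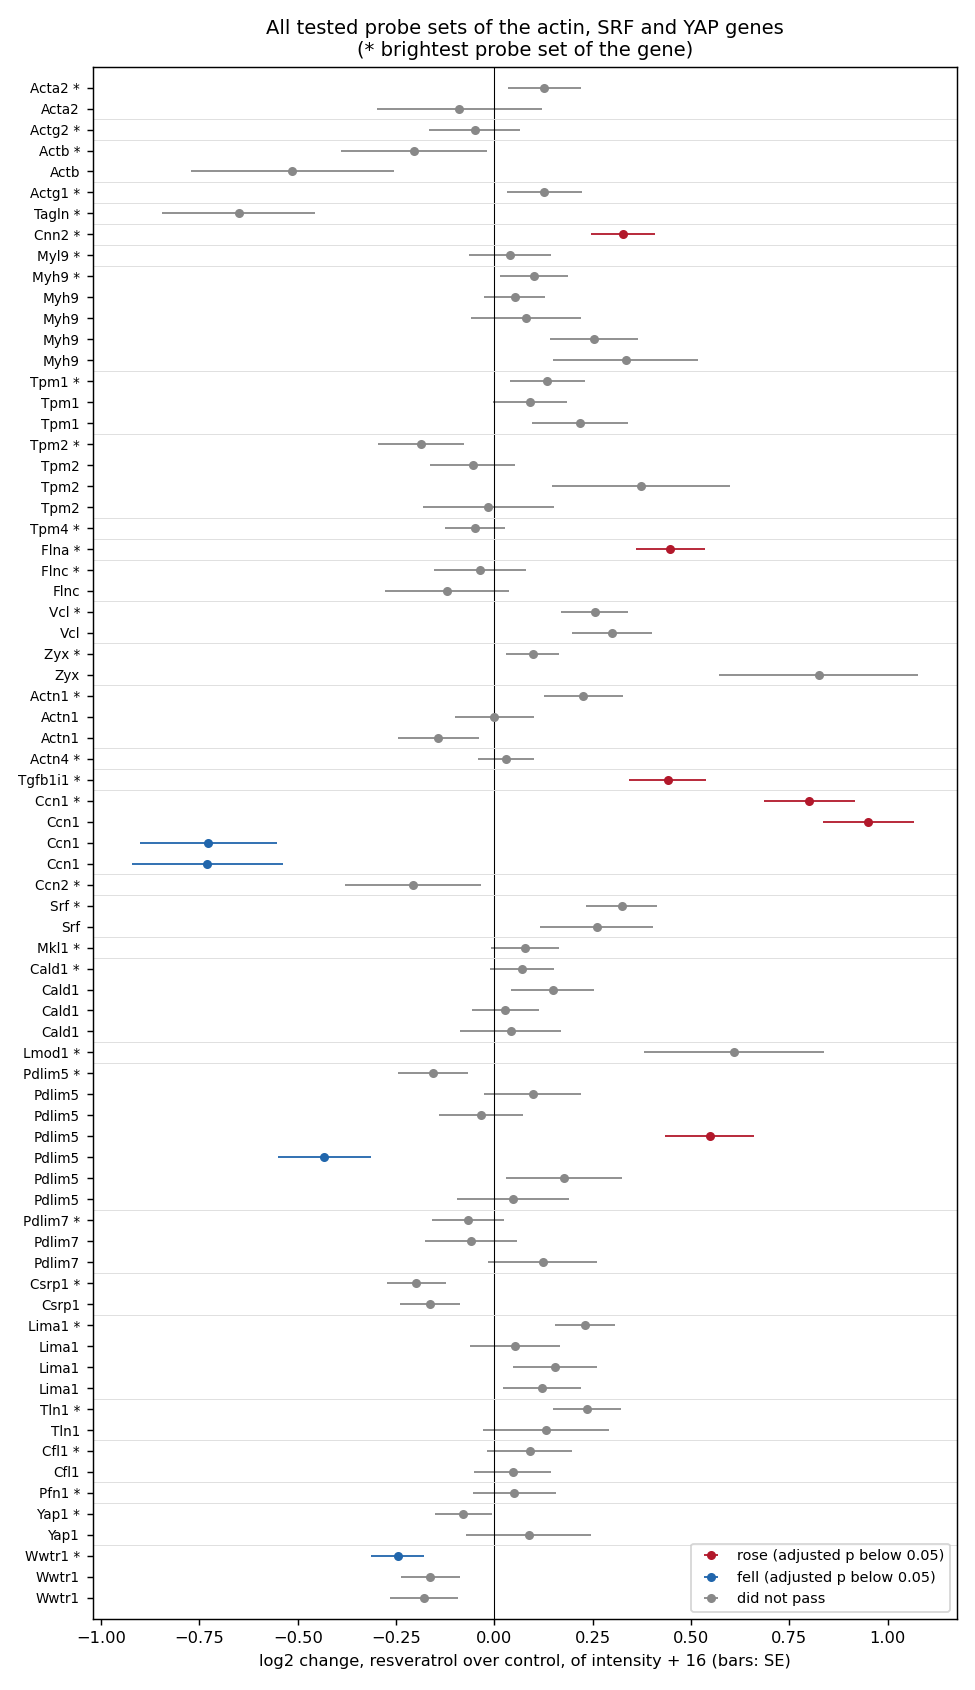
Log2 change of intensity + 16, resveratrol over control, on the x axis for each of the 73 tested probe sets, with bars for the SE and a star at the brightest probe set of each gene. Red points (6) rose, blue points (4) fell and grey points (63) did not pass an adjusted p of 0.05; Ccn1 holds 2 points on each side of 0.

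**Figure D2:**
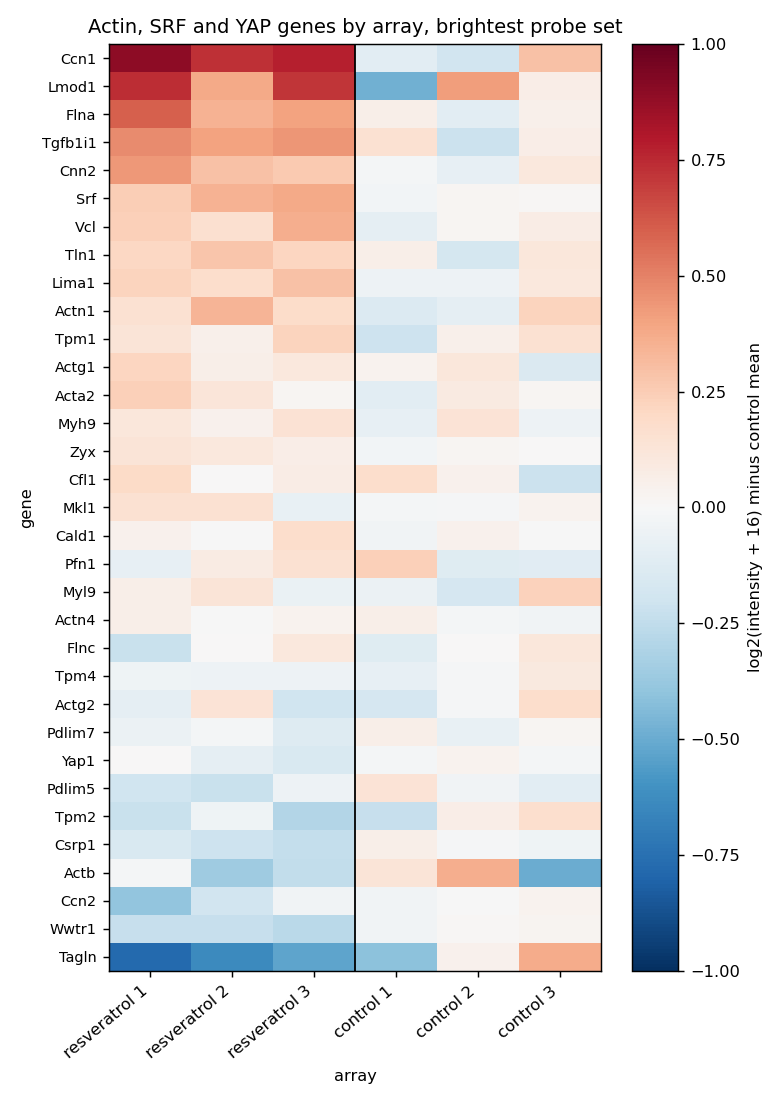
Deviation of log2(intensity + 16) from the control mean for the 33 tested genes (y axis, brightest probe set, ordered by change) on each of the 6 arrays (x axis). Ccn1, Lmod1, Flna, Tgfb1i1, Cnn2 and Srf are red on all 3 resveratrol arrays, though Lmod1 and Srf did not pass. Tagln, which did not pass either, and Wwtr1 are blue on all 3, and most of the genes between are pale on every array.

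Among the targets shared by YAP and SRF, Ccn1 gave the largest rise and Ccn2 and Ankrd1 gave no call. Ccn1 (formerly Cyr61) encodes a secreted matricellular protein that binds integrins and is induced within minutes by serum and by mechanical load. Its brightest probe set may share sequence with other genes. It had intensities of 988, 879 and 912 in the resveratrol cultures, against 487, 458.5 and 646 in the control cultures. All 3 treated cultures lay above the highest control. The means were 926 ± 55.6 and 530 ± 101 (SD, n = 3 each), a log2 change of 0.80 ± 0.115 (SE), or 1.74-fold, with an adjusted p of 0.00174. In a culture measured as a whole, a different number of cells of a type and a different amount of RNA per cell cannot be told apart, here and in the results that follow.

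A second bright probe set of Ccn1, which may match several transcripts of the gene, gave the same picture. It had 666.5, 663 and 635 in the resveratrol cultures, against 296, 296 and 413 in the control cultures, with no overlap. The log2 change was 0.95 ± 0.116, or 1.93-fold, with an adjusted p of 0.000622. With the spike split as a block the 2 changes were 0.75 and 0.88, with adjusted p = 0.00473 and 0.00144. Within the brighter arrays (resveratrol 1 against control 1 and 2) they were 1.04 and 1.13. Within the dimmer arrays (resveratrol 2 and 3 against control 3) they were 0.46 and 0.63. Each such value, here and below, rests on a single array on 1 side.

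The other 2 probe sets annotated to Ccn1 pointed the other way. Both were dim and both come from the same expressed sequence tag, so they are not independent of each other. The brighter of them had 38.8, 23.7 and 23.8 in the resveratrol cultures, against 63.5, 51.1 and 57.7 in the control cultures. It fell by 0.73 on the log2 scale (SE 0.174, adjusted p = 0.027). The dimmest had 28.6, 28.1 and 17.1 in the resveratrol cultures, against 54.4, 38.5 and 61.3 in the control cultures, a log2 change of -0.73 ± 0.192 with an adjusted p of 0.04. The groups were apart in both. With the spike split as a block the adjusted p-values were 0.057 and 0.0654. Of the 6 fits without 1 array, the first kept its call only without resveratrol 1 and the dimmest only without control 2, and the adjusted p-values reached 0.103 (without resveratrol 2) and 0.126 (without control 3). When the 4 probe sets were averaged, the Ccn1 change was 0.07 with an adjusted p of 0.746. Which transcript each probe set reads is not given in the files, and what sets the dim pair apart was not tested.

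Ccn2 (formerly Ctgf), the sister gene of Ccn1 and a standard YAP and TGF-beta target, was barely above the lowest levels tested. It had 17.3, 22.5 and 26.8 in the resveratrol cultures, against 26.9, 27.7 and 29 in the control cultures. The groups touched without overlapping, and the log2 change of -0.21 ± 0.173 did not pass (adjusted p = 0.559). Ankrd1, a nuclear ankyrin-repeat protein used as a YAP reporter, was too dim to be tested. Its 2 probe sets averaged 10.4 ± 4.41 and 2.8 ± 0.7 in the resveratrol cultures, against 12.2 ± 0.635 and 6.4 ± 2.59 in the control cultures.

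**Figure D3:**
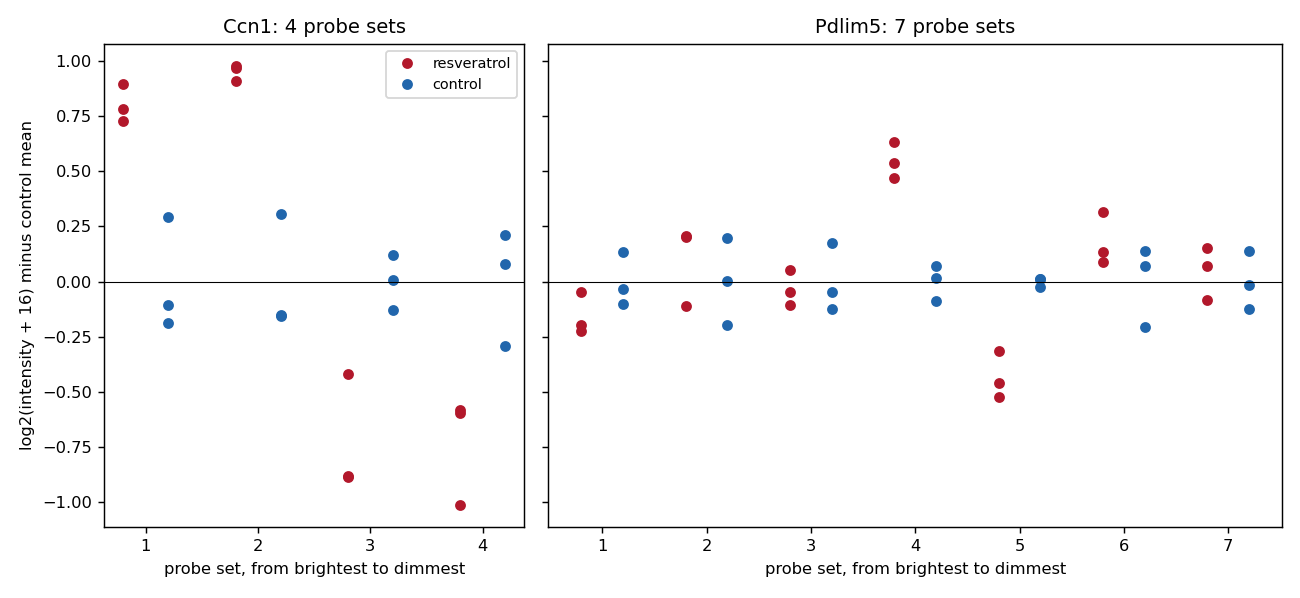
Log2(intensity + 16) minus the control mean (y axis) for every tested probe set of Ccn1 (left, 4) and Pdlim5 (right, 7), ordered from brightest to dimmest along the x axis, with red points for resveratrol and blue points for control arrays. In Ccn1 the 2 bright probe sets lie above the controls and the 2 dim ones below; in Pdlim5 only the probe sets numbered 4 and 5 stand apart, in opposite directions.

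Of the transcription factors and cofactors, the TAZ transcript fell slightly and Srf stood just outside the threshold. Wwtr1, which encodes TAZ, had 745, 746 and 724 in the resveratrol cultures, against 855, 885 and 895 in the control cultures at its brightest probe set. The replicates lay close together and the groups were well apart. The means were 738 ± 12.5 and 878 ± 20.5 (SD, n = 3 each), a log2 change of -0.25 ± 0.0678 (adjusted p = 0.0487). The 2 other Wwtr1 probe sets gave -0.16 (adjusted p = 0.234) and -0.18 (adjusted p = 0.261), in the same direction but not past the threshold. The call lies at the edge: leaving out any 1 of the 6 arrays ended it, with adjusted p-values between 0.0646 (without control 1) and 0.144 (without control 2), and with the spike split as a block it was 0.0703.

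Srf, the factor itself, had 184, 198 and 203 in the resveratrol cultures, against 149, 154 and 153 in the control cultures. Every treated culture was above every control, and the log2 change was 0.32 ± 0.0903, with an adjusted p of 0.0504. Its other probe set gave 0.26 (adjusted p = 0.334), with a spread in the control cultures of 27 around a mean of 116. Srf did pass when only the brightest 40% of probe sets were tested (adjusted p = 0.0425) and with an offset of 1 (adjusted p = 0.0493), whereas with the spike split as a block its adjusted p was 0.106. Mkl1, the actin-sensing cofactor annotated here as Mrtfa, had 361, 359.5 and 305 in the resveratrol cultures, against 317, 319 and 331 in the control cultures. These overlapped, and the change was 0.08 ± 0.0867 (adjusted p = 0.683).

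Yap1 had 743, 693.5 and 667 in the resveratrol cultures, against 732, 760 and 732 in the control cultures. The groups overlapped at its brightest probe set, with a log2 change of -0.08 (adjusted p = 0.597), and the dimmer probe set gave 0.09 (adjusted p = 0.817). The regulatory lists gave no call. Of 6 tested genes of SRF and its cofactors, Srf and Mkl1 among them, 0 rose and 0 fell (median log2 change 0.12), and of 17 tested Hippo kinases, adaptors and TEAD factors, 0 rose and 0 fell (median -0.03). In limma 1 of the 6 (Srf) and 5 of the 17 had an unadjusted p under 0.05. The share of all genes at that level is not given here, so these counts have nothing to be compared with. Without control 3 and without resveratrol 3 there was 1 call in the Hippo list. Arrays read transcript levels, so the nuclear entry of MRTF, YAP or TAZ was not measured.

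**Figure D4:**
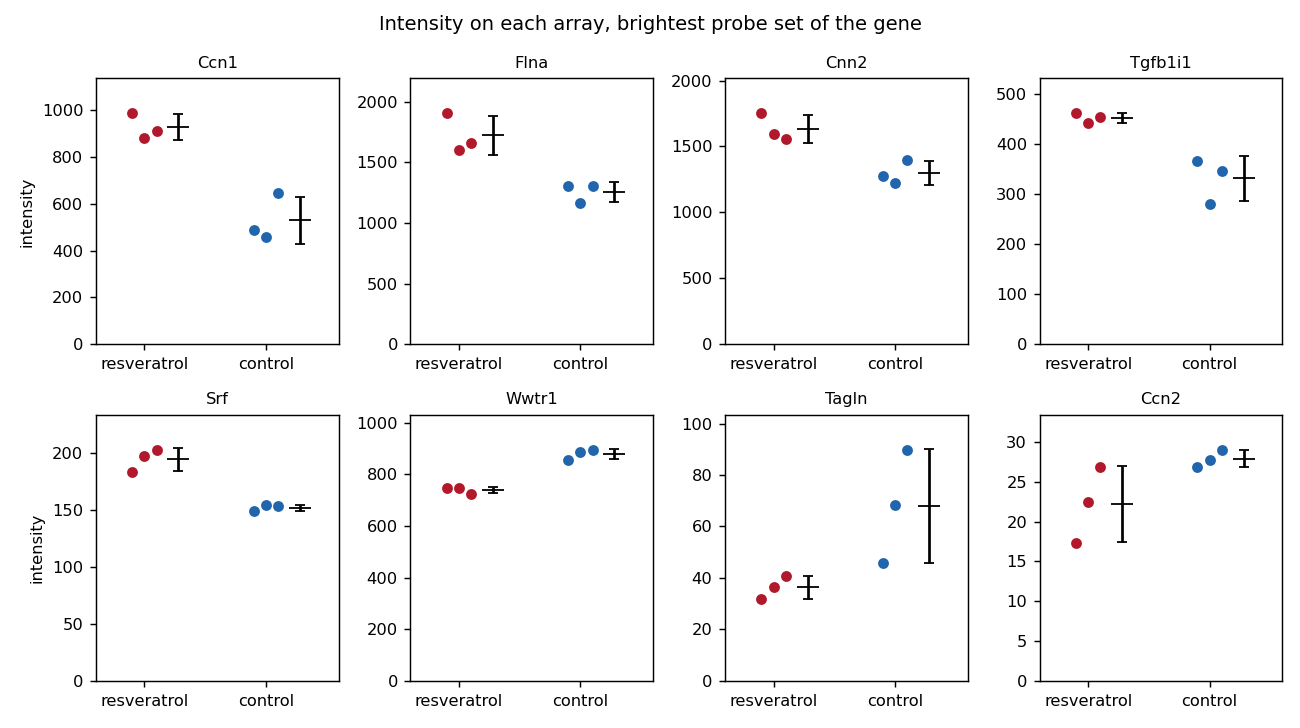
Intensity on each array (y axis, starting at 0) for the brightest probe set of 8 genes, with red points for the 3 resveratrol and blue points for the 3 control cultures, and the mean and SD in black beside them. Ccn1, Flna, Cnn2 and Tgfb1i1 rose, Wwtr1 fell, and Srf (adjusted p = 0.0504), Tagln (0.0668) and Ccn2 (0.559) did not pass although their groups do not overlap.

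The actin genes gave no call. Actb, cytoplasmic beta-actin, had 7944, 6301.5 and 6801 in the resveratrol cultures, against 8820.5, 10344 and 5711 in the control cultures at its brightest probe set. Control 3 was the lowest array of all and control 2 the highest. The log2 change was -0.20 ± 0.185 (adjusted p = 0.593). A dimmer probe set had 863, 773 and 679 in the resveratrol cultures, against 1771, 1144 and 660 in the control cultures, a change of -0.51 ± 0.259 (adjusted p = 0.283). Without control 3 the 2 changes were -0.45 (adjusted p = 0.0342) and -0.88 (adjusted p = 0.0107), so a call for Actb depends on that array. The brightest Actb probe set was higher on each of the 3 arrays with bright spiked-in transcripts than on each of the 3 others, and with the spike split as a block its change was -0.03. The part of array brightness in the Actb values was not tested further. The ratio of 3′ to 5′ Actb signal was 1.29, 1.24 and 1.20 in the resveratrol cultures, against 1.24, 1.24 and 1.27 in the control cultures, and these ranges overlap.

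Actg1, cytoplasmic gamma-actin, had 5164.5, 4625 and 4781 in the resveratrol cultures, against 4552, 4800 and 4009.5 in the control cultures. The groups overlapped, with a log2 change of 0.13 (adjusted p = 0.499), although under quantile normalization it was 0.21 (adjusted p = 0.0114). Acta2, smooth muscle alpha-actin and a marker of myofibroblasts, had 5173, 4749 and 4437 in the resveratrol cultures, against 4058, 4653 and 4436 in the control cultures. This probe set may share sequence with other actins, and its log2 change was 0.13 ± 0.0931 (adjusted p = 0.494). A dim Acta2 probe set averaged 26.8 ± 10.5 and 29.0 ± 6.19 in resveratrol and control cultures, with a change of -0.09 (adjusted p = 0.862), so the level of Acta2 differs widely with the probe set read. Actg2, enteric gamma-actin, had 211, 248 and 194 in the resveratrol cultures, against 199, 223 and 257 in the control cultures (log2 change -0.05, adjusted p = 0.86).

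**Figure D5:**
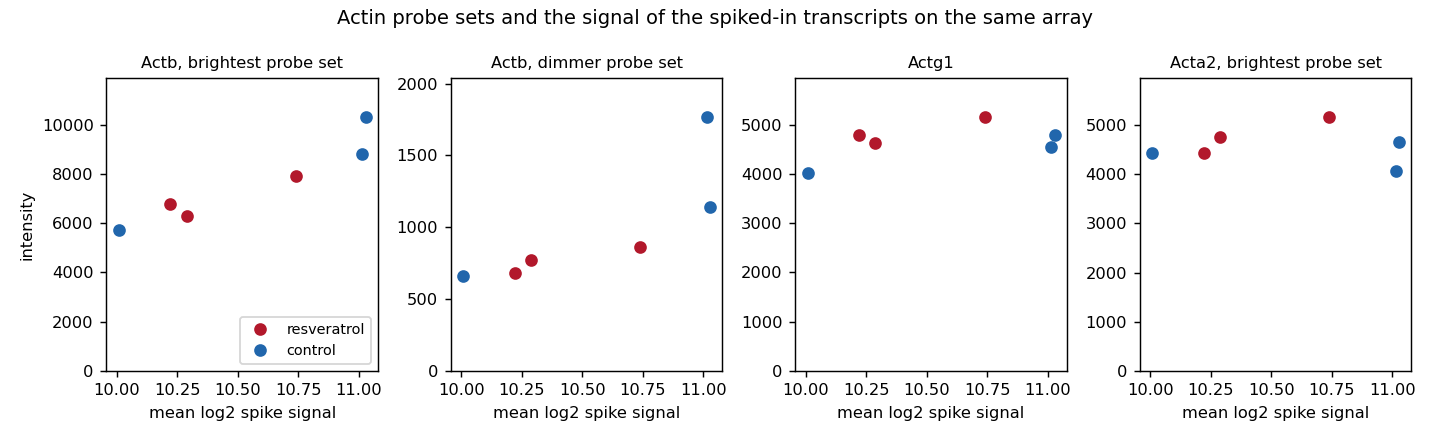
Intensity of 4 actin probe sets (y axis, starting at 0) against the mean log2 signal of the 18 spiked-in control probe sets on the same array (x axis), with red points for resveratrol and blue points for control arrays. The brightest Actb probe set is highest on the 3 arrays with the brightest spikes, 2 of them controls, while Actg1 and Acta2 lie within a narrow band on all 6 arrays.

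Among the proteins that crosslink and decorate filaments, Flna and Cnn2 rose. Flna encodes filamin A, which joins actin filaments into networks and anchors them to membrane receptors. It had 1905, 1598 and 1662 in the resveratrol cultures, against 1305, 1163 and 1303 in the control cultures. Every treated culture was above every control. The means were 1722 ± 162 and 1257 ± 81.6 (SD, n = 3 each), a log2 change of 0.45 ± 0.0875 (adjusted p = 0.0102), and 0.47 with the spike split as a block (adjusted p = 0.0113). Within the brighter arrays it was 0.62 and within the dimmer arrays 0.32, and without control 2 its adjusted p was 0.0513. Its muscle relative Flnc, filamin C, gave -0.04 and -0.12 at 2 probe sets (adjusted p = 0.901 and 0.732).

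Cnn2 encodes the calponin of non-muscle cells, an actin-binding protein that steadies stress fibres. It had 1753, 1591 and 1554.5 in the resveratrol cultures, against 1276, 1225 and 1396 in the control cultures. No treated culture fell among the controls, and the log2 change was 0.33 ± 0.0811 (adjusted p = 0.0314), or 0.33 with the spike split as a block (adjusted p = 0.0426). Within the brighter arrays it was 0.48 and within the dimmer arrays 0.17. The call was lost without resveratrol 1 (adjusted p = 0.133), resveratrol 2 (0.0862), resveratrol 3 (0.0519), control 1 (0.0736) or control 2 (0.125). Its smooth muscle relative Cnn1 was too dim to be tested, at 2.63 ± 0.379 in resveratrol and 2.57 ± 0.494 in control cultures.

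Tagln, transgelin or SM22, is a calponin-like protein and a classical SRF target, and its change had the opposite sign to that of Cnn2. It had 31.7, 36.6 and 40.7 in the resveratrol cultures, against 45.7, 68.2 and 89.8 in the control cultures. The groups were apart but the controls were widely spread, and the log2 change of -0.65 ± 0.195 did not pass (adjusted p = 0.0668). It did pass without control 1 (-0.85, adjusted p = 0.0166) and with the spike split as a block (-0.78, adjusted p = 0.0307). Lmod1, leiomodin, an actin nucleator of smooth muscle, averaged 43.8 ± 8.05 in resveratrol and 24.2 ± 12.1 in control cultures, and its log2 change of 0.61 ± 0.229 did not pass either (adjusted p = 0.139). Both are at the dim end of what was tested, where the lowest mean level kept was 20.3.

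The tropomyosins, which wrap along filaments, the caldesmon gene Cald1 and the motor genes gave no call at any probe set. Tpm1 had changes of 0.09 to 0.22 at 3 tested probe sets, Tpm4 had -0.05, and the 4 of Tpm2 ranged from -0.19 to 0.37. Cald1, whose brightest probe set averaged 3350 ± 223 in resveratrol and 3187 ± 88.3 in control cultures, had changes of 0.03 to 0.15 at 4 tested probe sets. Myh9, the heavy chain of non-muscle myosin IIA, was positive at all 5 probe sets, from 0.05 to 0.33, with no adjusted p below 0.215, and the regulatory light chain gene Myl9 gave 0.04. Cfl1, cofilin, which severs filaments, had changes of 0.09 and 0.05, and Pfn1, profilin, which feeds monomers to growing ends, had 0.05.

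At the sites where filaments meet adhesions, Tgfb1i1 rose. It encodes Hic-5, a paxillin-like LIM protein of focal adhesions that also shuttles to the nucleus. It had 462, 442 and 454.5 in the resveratrol cultures, against 367, 281.5 and 346 in the control cultures. The treated cultures were nearly equal and all above the controls. The means were 453 ± 10.3 and 332 ± 44.6 (SD, n = 3 each), a log2 change of 0.44 ± 0.0978 (adjusted p = 0.0193), with 0.50 within the brighter and 0.36 within the dimmer arrays and 0.43 with the spike split as a block (adjusted p = 0.0436). It lost its call without resveratrol 1 (adjusted p = 0.0724), resveratrol 2 (0.0571), resveratrol 3 (0.0527) or control 2 (0.066).

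Vinculin, talin, EPLIN and the alpha-actinins, which link adhesions to filaments, gave no call. Vcl, vinculin, had 3136, 2980 and 3436 in the resveratrol cultures, against 2501.5, 2693.5 and 2799 in the control cultures. The groups did not overlap, with a log2 change of 0.25 (adjusted p = 0.0993), and its other probe set gave 0.30 (adjusted p = 0.101). Under quantile normalization the first was 0.29 with an adjusted p of 0.046. Tln1, talin, gave 0.23 (adjusted p = 0.132) and 0.13. Lima1, the filament-bundling protein EPLIN, gave 0.23 (adjusted p = 0.0977) at the brightest of 4 probe sets and 0.05 to 0.15 at the others. Actn1, an alpha-actinin, gave 0.23 (adjusted p = 0.22), which was 0.34 without control 3 (adjusted p = 0.0404), while its 2 dimmer probe sets gave -0.00091 and -0.14. Actn4 gave 0.03.

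Zyx, zyxin, which gathers at strained filaments, gave no call at either of its probe sets. Its bright probe set averaged 827 ± 17.9 in resveratrol and 772 ± 14.2 in control cultures, a log2 change of 0.10 (adjusted p = 0.464). Its dim probe set had 74.2, 31.5 and 44.6 in the resveratrol cultures, against 12.2, 30 and 20 in the control cultures, a change of 0.82 ± 0.253 that did not pass (adjusted p = 0.0728). The mean of the 2 was 0.46 with an adjusted p of 0.0458. Csrp1, a LIM protein of the filament, was lower at both probe sets without passing, at -0.20 (adjusted p = 0.14) and -0.16 (adjusted p = 0.241), with no overlap between groups in either.

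Pdlim5, also called ENH, a PDZ and LIM protein that ties kinases to the actin cytoskeleton, was read differently by its 7 probe sets. The brightest did not pass (log2 change -0.16, adjusted p = 0.357). The probe set ranked 4 by brightness had 120, 114 and 129 in the resveratrol cultures, against 78.8, 72.2 and 82.2 in the control cultures, and rose by 0.55 ± 0.113 (adjusted p = 0.0134). That ranked 5 had 67.3, 76 and 63.8 in the resveratrol cultures, against 99.5, 99.6 and 96.6 in the control cultures, and fell by 0.43 (SE 0.118, adjusted p = 0.0467). In both the groups were clearly apart, and the 4 remaining probe sets gave -0.03 to 0.18. The rise had an adjusted p of 0.0527 without resveratrol 3 and 0.0536 without control 2, and the fall was lost without any 1 of the arrays (0.0753 to 0.129) and with the spike split as a block (0.0778). Pdlim5 is known to make long forms with LIM domains and short forms without them, and which form each probe set reads is not given in the files. Pdlim7, its relative, gave -0.07, -0.06 and 0.12 at 3 probe sets.

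In all, 6 genes had at least 1 probe set past the threshold, and 3 of them (Ccn1, Pdlim5 and Wwtr1) also had a probe set that did not pass or that passed in the other direction. Of the 20 genes with several tested probe sets, 7 had changes of both signs: Acta2, Tpm2, Actn1, Ccn1, Pdlim5, Pdlim7 and Yap1. For Ccn1 and Pdlim5 the opposite signs were both past the threshold. Flna, Cnn2 and Tgfb1i1 each had 1 probe set, so no second reading of them was available.

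A list of SRF and MRTF targets outside these 35 genes held more calls upwards than downwards. This list and those that follow were chosen with earlier results of these data known, and the activity of SRF was not measured. Of 29 tested SRF and MRTF targets, 6 rose, 1 fell and 22 did not pass, where 5.32% of all genes rose and 5.21% fell, and their median log2 change was 0.19, against 0.02 over all genes. The 6 rises became 3 without resveratrol 1 or control 1, 4 without resveratrol 2 or resveratrol 3, 2 without control 2 and 7 without control 3, with 1 fall each time. Here and in the lists that follow, the shares of all genes are from the fit with all 6 arrays. Without 1 array the calls over all probe sets also dropped, from 2209 to between 1131 and 1952. Pdlim1, a PDZ and LIM protein of stress fibres, rose by 0.64 ± 0.0997 (adjusted p = 0.00297). Tpm3, a cytoskeletal tropomyosin, rose by 0.40 at its brightest probe set (adjusted p = 0.00468). Its 4 tested probe sets ranged from -0.19 to 0.48, and their mean was 0.25 (adjusted p = 0.072). Wdr1, which helps cofilin to take filaments apart, rose by 0.32 (adjusted p = 0.0238) and did so at all 3 of its probe sets. Its adjusted p was 0.108, 0.0746, 0.0632 and 0.0648 without resveratrol 2, resveratrol 3, control 1 and control 2. The 1 fall was Csrp2, a LIM protein related to Csrp1, with 67.0 ± 2.63 in the resveratrol and 132 ± 5.90 in the control cultures, a change of -0.83 ± 0.110 (adjusted p = 0.00108).

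Other YAP and TAZ targets gave 6 rises and 0 falls among 22 tested (5.32% and 5.21% over all genes), with 16 that did not pass and a median of 0.13; without 1 array there were 4 to 6 rises and 0 falls, with 4 without resveratrol 1 or resveratrol 3. In limma, 0 of the 22 fell at an unadjusted p under 0.05, and the share of all genes that did is not given here. Arhgef17 rose by 0.49 (adjusted p = 0.00262) at the brightest of 3 probe sets, the only 1 of them to pass, and the mean of the 3 was 0.20 (adjusted p = 0.201). Vgll3, a TEAD cofactor, rose by 0.63 (adjusted p = 0.00308) and at all 3 of its probe sets. F3, tissue factor, rose by 0.53 (adjusted p = 0.00683) and Birc5, survivin, which guards dividing cells, by 0.47 (adjusted p = 0.00844).

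Of 29 tested genes of actin nucleation, capping and turnover, 5 rose and 0 fell (median 0.11), again beside 5.32% and 5.21% of all genes. The 5 rises became 2 without resveratrol 1 or resveratrol 3, 1 without resveratrol 2 or control 2, and 3 without control 1 or control 3. At an unadjusted p under 0.05 in limma, 1 of the 29 fell, again without the share of all genes beside it. Lasp1, a filament-binding LIM protein, rose by 0.41 (adjusted p = 0.00844) and at 5 of its 9 probe sets. Pfn2, a second profilin, rose by 0.35 (adjusted p = 0.0262) and at all 3 probe sets. Its call was lost with the spike split as a block (adjusted p = 0.0587) and without resveratrol 1 (0.0669), resveratrol 2 (0.0737), resveratrol 3 (0.0846), control 2 (0.103) or control 3 (0.065). Dstn, the cofilin relative destrin, rose by 0.33 (adjusted p = 0.0277), a call lost without resveratrol 1 (0.0926), resveratrol 2 (0.128), control 1 (0.0824) or control 2 (0.0895). Wdr1 and Dstn are in this list and in that of SRF and MRTF targets, so their rises are counted in both. Of 25 tested focal adhesion and integrin genes, 2 rose and 1 fell (median -0.05), a share near the 10.5% of all genes called. There was 1 rise without resveratrol 1 and there were 3 without resveratrol 3. Tns3, the adaptor tensin 3, rose by 0.52 (adjusted p = 0.00123) with -0.24 at its other probe set, and the mean of the 2 was 0.14 (adjusted p = 0.266). Tln2, a second talin, rose by 0.48 at its brightest probe set (adjusted p = 0.0113, or 0.0527 without resveratrol 1). Its other probe set gave 0.10, and the mean of the 2 was 0.29 (adjusted p = 0.0924). The laminin-receptor subunit Itga6 fell by 0.33 (adjusted p = 0.0143), with adjusted p-values of 0.0591, 0.0684 and 0.0607 without resveratrol 1, resveratrol 2 and control 2.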

How the data were processed

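RNA of 3 resveratrol and 3 control cultures was hybridised to 1 array each. The deposited table gives 1 linear intensity for each probe set; per the labels' protocols, RNA was isolated with Trizol and labelled by the array maker's procedure. The authors' summary method was not given in the sources used here. The mean after trimming 2% at each end was 150 on every array, as read from the values, so each array carries a single scaling factor. On control 1 only 0.789% of values had 1 decimal, against 100% on the others.

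Of 45101 probe sets, the 64 control sets were not tested, and only the 34945 that the platform annotation gives to 1 gene were named. Intensities were turned into log2(intensity + 16), which makes changes of dim probe sets look smaller. Probe sets in the upper 60% by the mean of these values were fitted in R 4.3.3 with lmFit and eBayes of limma 3.58.1, with the variance trending on intensity. Tests were 2-sided at a threshold of 0.05 after Benjamini-Hochberg adjustment over all 27022 of them. The brightest probe set stands for a gene. All adjusted p-values are from this fit unless another setting is named. The fit was tested on simulated data.

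The member genes, the other lists, the markers and the tests were chosen with earlier results of these data known. Members with a probe set past the threshold, actins, transcription factors and cofactors and CCN genes are given by array (Vcl, Tagln and the dim Zyx probe set were added after their values were seen), other members by range, and up to 4 genes with the smallest p from each other list. The result of 1 other list is not reported here. The arrays were also split by spike signal, as a block. Promoter motifs were searched in RefSeq sequences of GRCm38.p6. Figures were drawn with Python 3.11.15, pandas 2.3.3 and matplotlib 3.10.9.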

Additional observations from a re-analysis of the deposited data

How the results depend on the processing

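With 3 arrays a group, the number of calls moved with the setting. The count of changed probe sets over the whole array was 2209, and 1396 with no filter on dim probe sets, 861 with no intensity trend and 1431 without probe sets of suffix x, s or a. Among the member probe sets the 10 calls became 4, 4 and 5 under these settings, and among the genes the 5 calls became 2 with no filter and 1 with no trend. Without probe sets of suffix x, s or a, 5 of 29 tested genes were called, 3 of them upwards. Neither bright Ccn1 probe set was tested there, and Ccn1 was read only by its dimmest, which fell. Leaving out 1 array at a time gave 1131 to 1952 probe sets, 3 to 9 member probe sets, 1 to 6 genes and a median change of 0.06 to 0.09. The 10 member probe sets kept their sign under every alternative that tested them singly, and 3 to 6 of the 10 kept their call without 1 array. The dimmer of the 2 bright Ccn1 probe sets kept its call in all 17 alternatives (0.86 to 1.10), and the brightest in 17 of 18, with the mean of the 4 probe sets as the exception. Flna kept its call in 17 of 19, the Pdlim5 rise in 15 of 17, Tgfb1i1 in 13 of 19, Cnn2 in 11 of 19 and Wwtr1 in 7 of 19. The Pdlim5 fall kept its call in 7 of 17 and the 2 Ccn1 falls in 9 of 16 and 7 of 17. Pdlim1 and Vgll3 kept theirs in 19 of 19, and Csrp2 and Birc5 in 18 of 18.

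Apart from Ccn1 in the fit without probe sets of suffix x, s or a, signs that turned belonged to changes that were not called. Of these, Tpm2 at -0.19 and Pdlim5 at -0.16 were the largest. When probe sets were averaged per gene Tpm2 was 0.0286, Pdlim5 0.0352 and Yap1 0.00358, and with the spike split as a block Myl9 was -0.0153 and the dim Yap1 probe set -0.0084. Without 1 array, the dim Acta2 probe set ranged from -0.272 to 0.0754, Actg2 from -0.142 to 0.0394, Myl9 from -0.0468 to 0.155, Flnc from -0.109 to 0.0565, Cfl1 from -0.0191 to 0.178, Pfn1 from -0.011 to 0.168 and the dim Yap1 probe set from -0.0697 to 0.183. The cause of these differences was not tested. Leaving out probe sets above 4000, an alternative added after the data were seen, gave 10 member probe sets and 5 genes.

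The labels do not say whether the replicate numbers pair the arrays. Resveratrol and control arrays of the same number had correlations of -0.06, -0.02 and 0.09 in their deviations from the group means. Arrays of different numbers had -0.08 to 0.09. With 3 arrays a group, these values cannot decide whether cultures were paired. With the replicate number as a block, 1894 probe sets, 7 member probe sets and 4 genes were called, and the median change of the members was 0.08. In that fit Cnn2 (adjusted p = 0.0508), Wwtr1 (0.0816), the Pdlim5 fall (0.0751) and the dimmest Ccn1 probe set (0.0682) were not called, and Tagln was (0.047). Of the other genes named, Dstn (0.0501), Ier2 (0.0519), Axl (0.067) and Evl (0.083) were not called.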

Other observations

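The lists outside the members also held genes whose probe sets disagreed. Evl, an Ena/VASP protein that helps filaments to lengthen, had 1 of 3 probe sets that rose, and its changes ranged from -0.08 to 0.36. Tgfb2, a secreted growth factor, rose at 1 of 4 probe sets, with a range of -0.02 to 0.40. Axl, a receptor tyrosine kinase, Ier2, an immediate early gene, and Fhl2, a LIM-only cofactor, each had 1 probe set and rose by 0.30, 0.29 and 0.44 (adjusted p = 0.0443, 0.0303 and 0.0245 in limma). The calls of Evl, Tgfb2, Axl, Ier2 and Fhl2 were lost without 5, 3, 6, 5 and 3 of the 6 arrays in turn, with adjusted p-values of up to 0.181, 0.0603, 0.177, 0.129 and 0.102. Just outside the threshold were Igfbp3, a carrier of insulin-like growth factors, at 0.43 (adjusted p = 0.0563), and Sorbs3, vinexin, which binds vinculin, at 0.46 (adjusted p = 0.059). Evl, Tgfb2, Axl, Ier2, Fhl2, Igfbp3 and Sorbs3 were chosen after their values were seen.

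The 3 control probe sets for Actb, which lie at its 3′ end, middle and 5′ end and were not tested, averaged 8470 ± 1263, 7395 ± 881 and 6815 ± 794 in the resveratrol cultures, against 9218 ± 1911, 7842 ± 1618 and 7386 ± 1622 in the control cultures (SD, n = 3 each).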
